A study of Mus musculus with 2 samples.

Results

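Interferon-stimulated effector genes are the genes that cells switch on when interferon binds its receptors, and whose products act directly against viruses and intracellular microbes. The set held 45 listed mouse genes, of which 35 were antiviral effectors, 8 were GTPases and 2 were chemokines. The genes were chosen by name, with earlier results of these data known. Each was read from the probe set that the array annotation gives to that gene alone and that was brightest over both arrays. A probe set is a group of short probes that together read 1 transcript. Of the 45 genes, 41 had such a probe set among the 18193 genes read in all. Probe sets shared with other genes were the only ones for Isg15 and Tgtp1, and Oas1g and Ifi44 had no probe set named for them here. The floor for analysis was an intensity of 78.4 (the median over every probe set on the arrays), reached on at least 1 array by 40 members and by 11920 genes in all. Cxcl9 was under it on both arrays.

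The study asked what loss of a long non-coding RNA, lnc-C/EBPβ (lncMDSC in the labels), does to gene expression in myeloid-derived suppressor cells (MDSCs), immature myeloid cells that restrain T cells. Bone marrow cells of C57BL/6 mice received an siRNA against it (silncMDSC) or a control siRNA and then spent 4 days in GM-CSF and IL-6, with no other treatment and no mutation in either group. Each group was read on 1 Affymetrix expression array, so the differences are between 2 arrays and carry neither replicate error nor a test. The labels do not say how many mice the marrow came from, and the knockdown itself was not analysed here.

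Interferons signal through paired receptors and JAK kinases to STAT proteins. Type I interferon assembles a factor of STAT proteins and IRF9 that binds the interferon-stimulated response element (ISRE), a pair of GAAA repeats, while type II interferon acts through a STAT dimer on the gamma-activated site (GAS), an inverted repeat of TTC and GAA. In myeloid cells a low level of this programme is kept up without infection, and many of its products, such as the RNA sensors and IRF7, feed back on it.

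The RefSeq promoter windows of the members are shown first because many members, though not all, hold the same short letters there. They come from assembly GRCm38.p6 and span 250 bases before to 50 after a transcript start (39 windows of 34 members). Both strands were searched for GAAANNGAAA (ISRE) and TTCNNNGAA (GAS), which overlap each other in the windows of Bst2 and Ifitm3. The ISRE letters stood in 20 of the 34 members (58.8%), against 3.99% of the 27025 genes with a window, and the GAS letters in 11 (32.4%), against 9.55%. By window, 53.8% of the members' windows and 3.44% of all 32851 windows held the ISRE letters. Of 36 interferon-induced genes outside the set, 15 held the ISRE letters (41.7%) and 5 the GAS letters (13.9%), so neither is particular to the members. A match is a run of letters and not a measured binding site. In the stretches below, read 5′ to 3′ in the direction of transcription, capitals mark the matches, and an ISRE on the other strand reads as TTTC repeats.
Ifit1 (chr19:34640775-34640823, + strand): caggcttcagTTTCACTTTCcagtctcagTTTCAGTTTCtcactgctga
Ifit3 (chr19:34583363-34583426, + strand): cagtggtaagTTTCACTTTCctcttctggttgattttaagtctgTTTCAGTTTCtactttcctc
Isg15 (chr4:156200865-156200906, - strand): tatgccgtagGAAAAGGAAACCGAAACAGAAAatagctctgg
Cxcl10 (chr5:92349083-92349112, - strand): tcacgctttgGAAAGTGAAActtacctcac
Irgm1 (chr11:48871425-48871460, - strand): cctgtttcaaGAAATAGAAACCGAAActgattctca

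Ifit1 and Ifit3 each held 2 separate ISRE matches upstream of the start, Isg15 held 3 that overlapped in a row, and Irgm1 held 2 that overlapped. Among the GTPases, 6 of 7 with a window had an ISRE match (85.7%), as did 13 of 25 antiviral effectors (52%). In 3 of the GTPase genes a GAS match was followed after 2 bases by an ISRE match, an arrangement found in 5 of the 32851 windows, all on chromosome 11. The 3 are printed here because they share it.
Igtp (chr11:58199501-58199541, + strand): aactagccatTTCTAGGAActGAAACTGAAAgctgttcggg
Irgm2 (chr11:58214892-58214932, + strand): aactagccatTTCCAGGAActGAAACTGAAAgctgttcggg
Tgtp1 (chr11:48992304-48992344, - strand): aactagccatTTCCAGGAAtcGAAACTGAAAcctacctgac

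The stretches of Igtp and Irgm2 were alike at 40 of 41 bases, and those of Irgm2 and Tgtp1 at 32 of 41. The start of Oas1a and that of its paralog Oas1g were alike at all 28 bases compared, the reason both are shown.
Oas1a (chr5:120907526-120907555, - strand): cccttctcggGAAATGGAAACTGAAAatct
Oas1g (chr5:120887614-120887641, - strand): cccttctcggGAAATGGAAACTGAAAat

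Neither set of letters was found in the windows of Herc6, Cmpk2, Oasl1, Oasl2, Parp12, Dtx3l, Ifi44, Xaf1, Ifi47 and Cxcl9. Windows were not matched for Usp18, Oas2, Mx1, Mx2, Dhx58, Zbp1, Ifi204, Parp9, Parp14, Rtp4 and Iigp1.

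**Figure D1:**
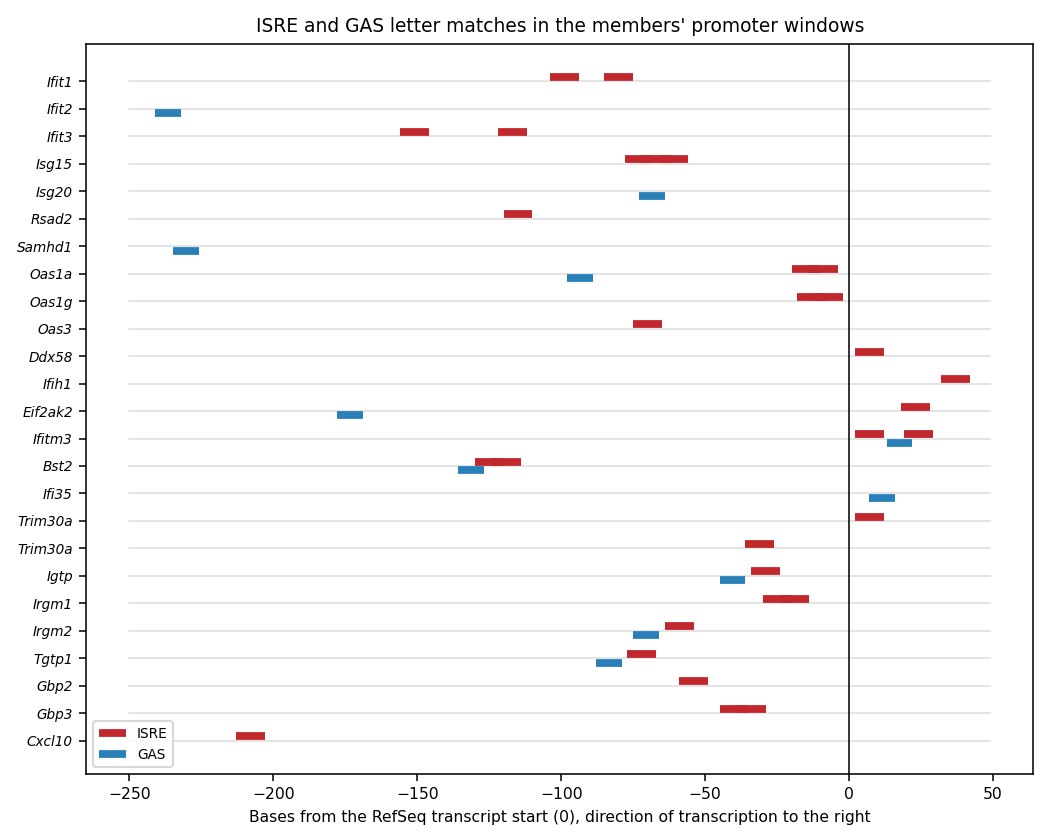
Positions of ISRE (red) and GAS (blue) letter matches in the promoter windows, 1 line for each window that held a match, with distance from the RefSeq transcript start in bases on the x axis. In Igtp, Irgm2 and Tgtp1 the GAS match lies just upstream of the ISRE match, with first bases 11 apart.

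The silncMDSC array read lower than the control array for most members, by small amounts. Differences are log2(intensity + 1) on the silncMDSC array minus the same on the control array. Of the 40 members above the floor, 35 lay below 0 and 5 above it, against 50.7% of all 11920 genes below 0. The members' median was -0.17, while that of all genes was -0.002. Because the members were chosen with earlier results of these data known, these shares are descriptive only. At least 1.5-fold lower were 4 members, Cxcl10, Iigp1, Cmpk2 and Ifit1, beside 1.42% of all genes, and 0 members were at least 1.5-fold higher, beside 0.948% of all genes. None was 2-fold apart, while 16 of all 11920 genes were at least 2-fold lower and 20 at least 2-fold higher. Cxcl10 reached the floor on the control array alone, and 3 of the 4 remain without it. Each of these 3 has a limit of its own. The other probe set of Cmpk2 gave 0.11, on the other side of 0. Ifit1 missed 1.5-fold with a loess trend removed (-0.58) and with quantile normalization (-0.57). Iigp1 was near the floor on the silncMDSC array, at 84.5.

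The lowest 10% of all differences, those under -0.27, took in 11 members (27.5%), and the highest 10%, those over 0.22, took in 1, Gbp2. The differences of all genes had a robust SD (scaled median absolute deviation) of 0.18, and 17 members (42.5%) lay within it, against 66.3% of all genes, with 20 below it and 3 above it. It is a spread over genes and no replicate error. The tilt was thus made of many small differences and few large ones. It was seen at both ends of brightness, since 18 of the 20 dimmest members were below 0 (median -0.18), against 48.9% of all genes in that range of intensity, and 17 of the 20 brightest (median -0.15), against 58.1% of all genes in theirs, whose own median was -0.04. Markers of macrophages (median -0.47), dendritic cells (0.41), monocytes (0.16) and T and NK cells (0.16) also differed between the arrays, and their part in the members' values was not tested.

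**Figure D2:**
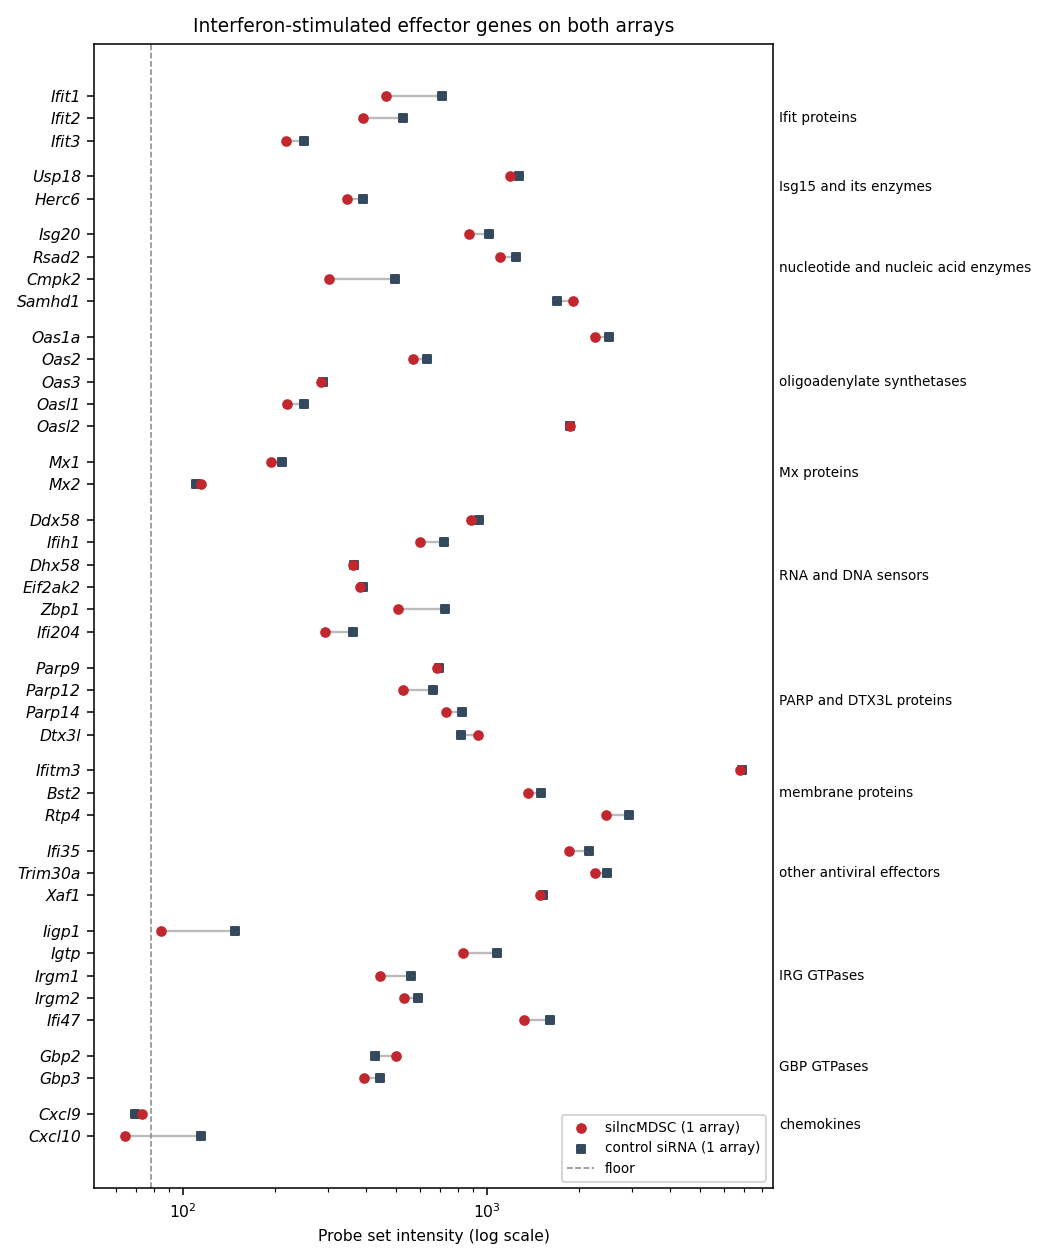
Intensity of the 41 members with a probe set of their own (x axis, log scale) on the silncMDSC array (red circles) and the control siRNA array (dark squares), 1 array each, grouped by role, with the floor of 78.4 dashed. The red circle lies left of the dark square for 35 of the 40 members above the floor, and the widest gaps are those of Cxcl10, Iigp1, Cmpk2 and Ifit1.

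Among the antiviral effectors, 28 of 32 were below 0 and the median was -0.15, with Ifit1 and Cmpk2 past 1.5-fold. The Ifit proteins, which bind foreign RNA and block its translation, read lower in all 3 genes. Ifit1, which binds viral RNA that lacks the methyl mark of the host's cap, had an intensity of 465 on the silncMDSC array and 711 on the control array, a difference of -0.61, or 1.53-fold lower. Ifit2 had 389 on the silncMDSC array and 529.8 on the control array (-0.44), and Ifit3, its neighbour on chromosome 19, had 217 with silncMDSC and 249 with control siRNA (-0.19). The order of the differences was thus Ifit1, Ifit2, Ifit3, and only the first was past 1.5-fold, which it missed at -0.58 with a loess trend removed and at -0.57 with quantile normalization.

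Isg15 is a ubiquitin-like protein that is attached to other proteins. Its only probe set is also annotated to Gm9706, so the value cannot be credited to either alone, and it was left out of the counts. That probe set had 1167 on the silncMDSC array and 1504 on the control array (-0.36), and a probe set for Gm9706 alone had 105 with silncMDSC and 137 with control siRNA (-0.39). The enzymes around it differed less. Usp18, the protease that removes Isg15 and also restrains the type I receptor, had 1192 on the silncMDSC array and 1273 on the control array (-0.09). Herc6, the ligase that attaches Isg15 in mice, had 345 with silncMDSC and 391 with control siRNA (-0.18), with 2 dimmer probe sets at -0.13 and -0.10.

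The enzymes that act on nucleotides and nucleic acids were uneven. Cmpk2, a nucleoside monophosphate kinase of mitochondria, had 302 on the silncMDSC array and 497 on the control array, 1.65-fold lower (-0.72). Its other probe set had 177 with silncMDSC and 164 with control siRNA (0.11), so the probe sets disagreed in sign and the gene's direction is uncertain. Rsad2, which encodes viperin and lies next to Cmpk2, had 1102 on the silncMDSC array and 1247 on the control array (-0.18), and its dimmer probe sets gave -0.21 and -0.30, all 3 on the same side. Isg20, an exonuclease that degrades single-stranded RNA, had 869 with silncMDSC and 1017 with control siRNA (-0.23).

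Samhd1, a hydrolase that lowers the dNTP pool and is abundant in myeloid cells, stood on the other side. It had 1918 on the silncMDSC array and 1694 on the control array (0.18), and its 4 other probe sets above the floor gave 0.12, 0.16, 0.41 and 0.44. All 5 probe sets of Samhd1 were above 0.

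The oligoadenylate synthetases sense double-stranded RNA and make the messenger that activates RNase L. Oas1a had 2269 on the silncMDSC array and 2523 on the control array (-0.15), Oas2 had 569 with silncMDSC and 634 with control siRNA (-0.16), and Oas3 had 284.96 with silncMDSC and 289.22 with control siRNA (-0.02). Of the oligoadenylate synthetase-like genes, Oasl1, which in mice restrains Irf7 translation, had 219.7 with silncMDSC and 251 with control siRNA (-0.19), and Oasl2 had 1873 with silncMDSC and 1866 with control siRNA (0.005). None of these 5 genes reached 1.5-fold or the lowest 10%. The dynamin-like antiviral GTPases Mx1 and Mx2 were dim, with 194 on the silncMDSC array and 211 on the control array for Mx1 (-0.12) and 114 with silncMDSC and 110.3 with control siRNA for Mx2 (0.05).

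All 6 sensors of foreign nucleic acid read below 0, with a median of -0.17, but only Zbp1 and Ifi204 were in the lowest 10%. Zbp1, which binds Z-form nucleic acid and can start necroptosis, had 509.7 on the silncMDSC array and 726 on the control array (-0.51), with -0.19 on its other probe set. Ifi204, a DNA-binding protein of the Ifi200 family, had 293 with silncMDSC and 362 with control siRNA (-0.31), and a brighter probe set that it shares with Mndal, Ifi211 and Ifi205 gave -0.27, a value that cannot be credited to Ifi204 alone. Zbp1 thus kept its side on a further probe set of its own, and Ifi204 had no such probe set.

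The sensors of viral RNA differed by less. Ifih1, which encodes MDA5, had 602 on the silncMDSC array and 720.4 on the control array (-0.26), Ddx58, which encodes RIG-I, had 886 with silncMDSC and 937 with control siRNA (-0.08), and Dhx58, which encodes LGP2, had 362 with silncMDSC and 365 with control siRNA (-0.01). The kinase Eif2ak2 (PKR), which stops translation on double-stranded RNA, had 382 with silncMDSC and 390.3 with control siRNA (-0.03), while its dimmer probe sets gave -0.12 and -0.24. Ddx58 had further probe sets at 0.01 and -0.01 and Dhx58 one at 0.04, so neither had a stable sign.

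The ADP-ribosyltransferases and their partner Dtx3l were uneven. Parp9 and Dtx3l bind each other, sit next to each other in the genome and act together in the DNA damage and interferon responses. Dtx3l, a ubiquitin ligase, had 934 on the silncMDSC array and 819 on the control array (0.19, and 0.23 on a second probe set), whereas Parp9 had 684 with silncMDSC and 695 with control siRNA (-0.02). Parp12 had 530.2 with silncMDSC and 662 with control siRNA (-0.32). Parp14 had 733 with silncMDSC and 825 with control siRNA (-0.17), with -0.03 on its other probe set. Parp12 was the member of this subgroup in the lowest 10%, and Dtx3l was the only one above 0.

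The 3 proteins that act at membranes were bright and read below 0, with a median of -0.14 and only Ifitm3 near level. Ifitm3, which blocks fusion of virus with endosomes, was the brightest member, with 6810 on the silncMDSC array and 6883 on the control array (-0.02). Bst2 (tetherin), which holds budding virions at the cell surface, had 1359.8 with silncMDSC and 1499.8 with control siRNA (-0.14). Rtp4, a receptor transporter protein, had 2462 with silncMDSC and 2924 with control siRNA (-0.25), and its other probe set, at the floor, gave -0.01. Of the remaining effectors, Ifi35 had 1853 with silncMDSC and 2168 with control siRNA (-0.23) with -0.25 and -0.31 on its other probe sets. Trim30a, a TRIM protein that restrains Toll-like receptor signalling in mice, had 2255 with silncMDSC and 2471.5 with control siRNA (-0.13). A further probe set of Trim30a alone gave -0.07. Xaf1, which promotes cell death, had 1492 with silncMDSC and 1531 with control siRNA (-0.04).

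The GTPases include proteins that gather on the vacuoles of intracellular microbes. Of the 7 above the floor, 6 were below 0 and the median was -0.28, with Iigp1 past 1.5-fold, and 4 of the 7 were in the lowest 10% (57.1%), beside 6 of 32 antiviral effectors (18.8%). The difference between the groups was not tested. All 4 belonged to the immunity-related GTPases (IRGs), of which 5 had a probe set of their own and all 5 were below 0.

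Iigp1, which encodes Irga6, an IRG that coats the vacuole of Toxoplasma, had 84.5 on the silncMDSC array and 149 on the control array, 1.75-fold lower (-0.81). Its other probe set had 66.2 with silncMDSC and 126 with control siRNA (-0.92), but was under the floor on the silncMDSC array and reached it only through the control array. The regulatory IRGs, which keep the others off the cell's own membranes, followed with Igtp at 835 on the silncMDSC array and 1075 on the control array (-0.36), Irgm1 at 445 with silncMDSC and 562 with control siRNA (-0.34), and Irgm2 at 533.5 with silncMDSC and 593 with control siRNA (-0.15). Igtp and Irgm2, whose promoter stretches are printed above, thus differed in size by 0.21. Ifi47 had 1324 with silncMDSC and 1612 with control siRNA (-0.28). The probe set shared by Tgtp1 and Tgtp2, not counted, had 327 with silncMDSC and 392 with control siRNA (-0.26).

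The 2 guanylate-binding proteins of the set lay on opposite sides of 0. Those outside the set with a probe set of their own, Gbp6 (-0.83), Gbp7 (-0.24) and Gbp8 (-0.14), all read below 0. Gbp2 had 502 on the silncMDSC array and 426 on the control array (0.24), with 0.14 on its other probe set, while Gbp3 had 392 with silncMDSC and 445 with control siRNA (-0.18). The brighter Gbp2 probe set is of a kind that can cross-hybridise with related genes.

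The chemokines Cxcl9 and Cxcl10 draw T cells that carry the receptor Cxcr3. Cxcl10 had 64.5 on the silncMDSC array and 114 on the control array (-0.82). It was under the floor on the silncMDSC array and entered only through the control array, so the size of its difference is not well determined. Cxcl9, under the floor on both arrays, had 73.4 with silncMDSC and 69.5 with control siRNA.

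**Figure D3:**
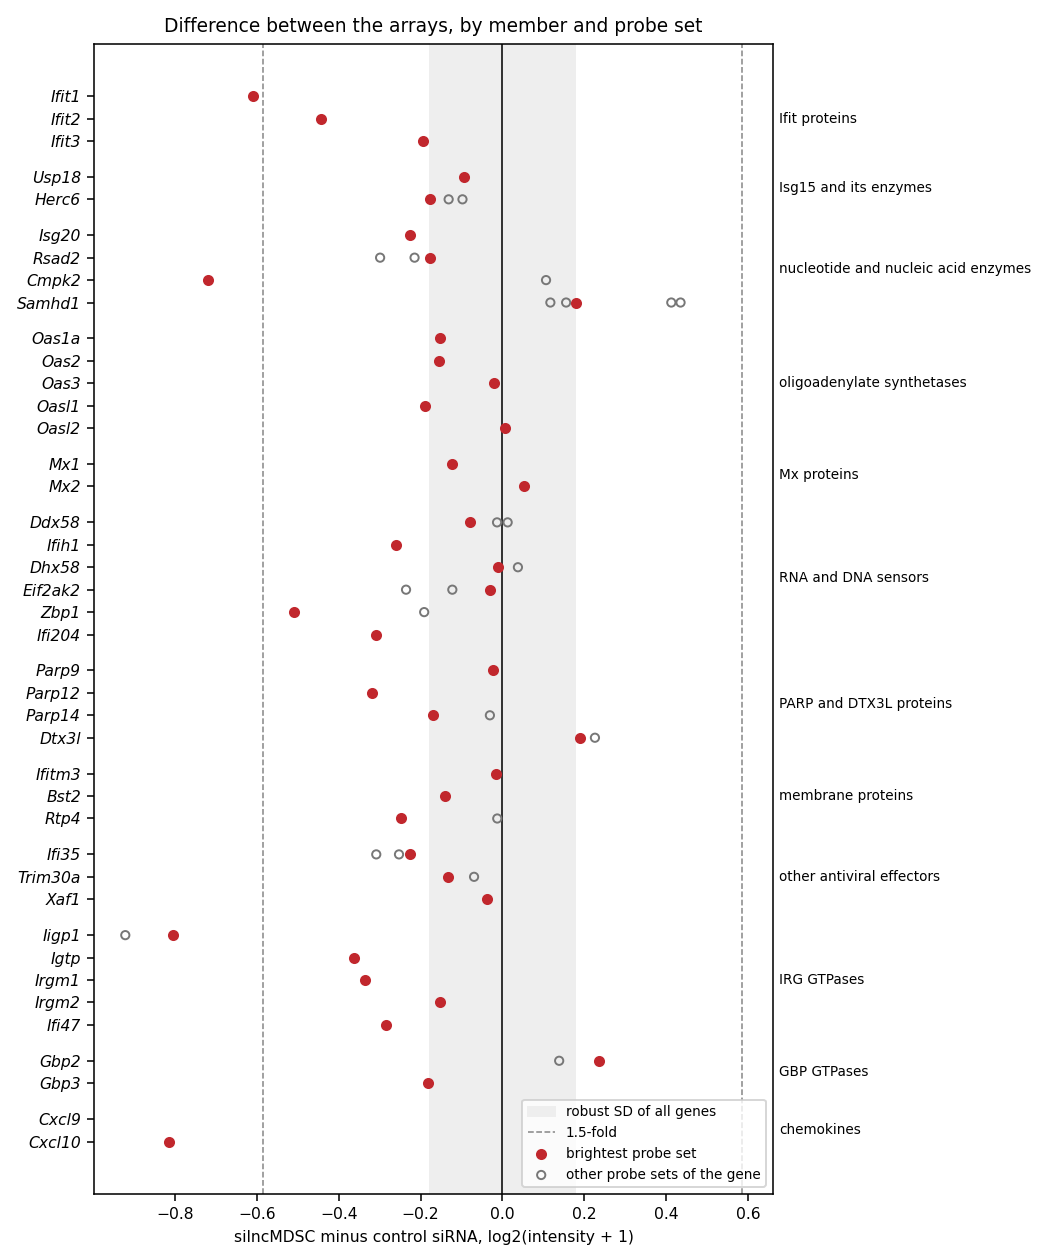
Difference between the arrays for each member (x axis, silncMDSC minus control siRNA, log2), with the brightest probe set in red and the gene's other probe sets above the floor as open circles, the robust SD of all genes shaded and 1.5-fold dashed. Cmpk2 reads past 1.5-fold on 1 of its 2 probe sets, and Samhd1 is above 0 on all 5, while Cxcl9, under the floor, has no point.

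Further probe sets offered a check on the same RNA. For 15 members there were 23 further probe sets above the floor, and 20 of the 23 lay on the same side of 0 as the brightest one. The like share over all genes was not computed, so the count does not set the members apart. All agreed in sign for 12 of the 15 members, the exceptions being Cmpk2, Ddx58 and Dhx58. Dhx58 and Parp9, both near 0, turned to the other side with the loess trend removed and with quantile normalization, Ifitm3 with the first only and Oas3 with the second only.

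Members with and without the promoter letters both read mostly lower. The 17 members above the floor with an ISRE match had a median of -0.15, 16 of them below 0, and the 12 whose window had none had a median of -0.21, 9 of them below 0. The 10 with a GAS match had a median of -0.15 and the 19 without one -0.18. The ISRE stretches shown above belong both to Ifit1 and Cxcl10, past 1.5-fold, and to Oas1a and Irgm2 (-0.15 each), nearer 0.

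The genes that produce and pass on the interferon signal lay on both sides of 0. Of 28 pathway genes above the floor, 10 were below 0 and 18 above, 0 were 1.5-fold apart in either direction, and the median was 0.05. The difference between this list and the effectors was not tested. The ligands Ifnb1 (29.0 on the silncMDSC array and 24.8 on the control array), Ifna2 (53.6 with silncMDSC and 54.2 with control siRNA), Ifna4 (28.5 with silncMDSC and 30.7 with control siRNA) and Ifng (29.1 with silncMDSC and 24.0 with control siRNA) were all under the floor on both arrays. The other interferon genes were not analysed here.

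Of the receptor chains, Ifngr1 had 1473 on the silncMDSC array and 1167 on the control array (0.34) and Ifngr2 had 665 with silncMDSC and 658 with control siRNA (0.02). Ifngr2 (-0.12 on its other probe set), Ifnar1 (-0.24, but 0.22 on another probe set) and Ifnar2 (0.22, but -0.16 on 2 others) had probe sets that disagreed. The kinases Jak2 (0.28) and Tyk2 (0.23) were above 0, and Jak1 was level (-0.0007). Of 8 transcription factors, 7 were above 0, with Irf2 at 0.27, Stat2 and Irf5 at 0.23, Irf1 at 0.15, Irf3 at 0.10, and Irf9 and Irf8 at 0.04, though further probe sets of Irf5 (-0.07) and Irf8 (-0.04) lay on the other side. The exception was Irf7, the factor that amplifies type I interferon and is itself induced by it, with 1781 on the silncMDSC array and 2026 on the control array (-0.19).

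Genes that sense nucleic acid upstream of interferon were mixed. Cgas, the DNA sensor, had 458 on the silncMDSC array and 587 on the control array (-0.36, and -0.30 on its other probe set), and the RNA receptor Tlr7 had 134 with silncMDSC and 165 with control siRNA (-0.29), both in the lowest 10%. Sting1, the adaptor that Cgas acts through, had 351 with silncMDSC and 266 with control siRNA (0.40, and 0.28 on its other probe set), and the RIG-I adaptor Mavs differed by 0.23. Tlr9 (0.12), Aim2 (0.10), Ikbke (0.06) and Tbk1 (-0.08) were nearer 0, and Tlr3 was under the floor. Of the inhibitors, Socs1, which blocks JAK kinases and is induced by interferon, had 139 on the silncMDSC array and 199 on the control array (-0.52), while the brightest probe sets of Socs3 (-0.08), Ptpn6 (-0.09), Ptpn2 (-0.005) and Pias1 (0.04) were nearer 0. Further probe sets above the floor gave -0.22 and -0.26 for Socs3, -0.05 for Ptpn6, 0.003 and -0.32 for Ptpn2, and 0.03 and -0.27 for Pias1, so Ptpn2 and Pias1 had no settled direction.

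Other interferon-induced genes that are not in the set lay between. Of 38 above the floor, 27 were below 0 (71.1%) with a median of -0.11, and Gbp6 alone was past 1.5-fold. The GTPase Gbp6 had 140.1 on the silncMDSC array and 249 on the control array (-0.83), followed by the Fc receptor Fcgr1 (-0.52, with -0.67 on its other probe set), Phf11d (-0.51), Slfn5 (-0.50, with -0.02 on another probe set above the floor), Pnpt1 (-0.41) and Ms4a4c (-0.39). Genes of MHC class I presentation and the immunoproteasome, many of which interferon also induces, lay around 0, with 5 of 11 below 0 and a median of 0.03. The proteasome subunit Psmb9 (0.29) and the peptide transporter Tap2 (0.26) were highest, and Nlrc5, which activates class I genes, lowest (-0.28). Inflammatory genes of the NF-κB type spread far more widely, from Ccl7 (-1.67) to Tnfrsf9 (1.30), with a median of -0.14. Of 24, 9 were past 1.5-fold on the lower side and 2 on the upper. Cxcl1 was counted near 0 (0.07) from a probe set that can cross-hybridise, while its other probe sets gave -1.22 and -0.85. Without such probe sets, 10 of 23 were past 1.5-fold on the lower side.

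**Figure D4:**
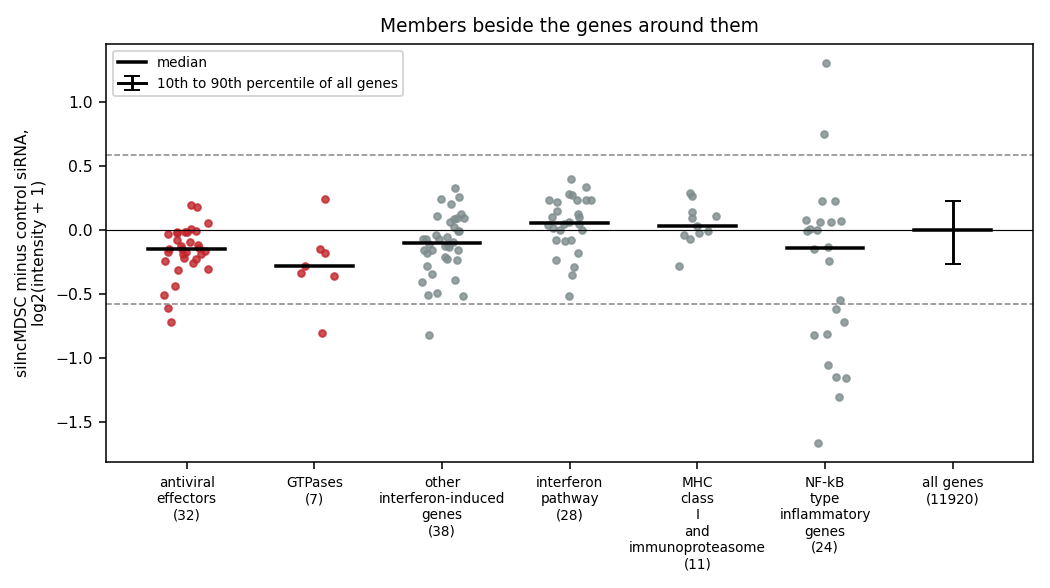
Difference between the arrays (y axis, silncMDSC minus control siRNA, log2) of each gene above the floor in 6 lists, with black bars for medians and, at right, a bar for all 11920 genes that leaves out their lowest and highest 10%. The antiviral effectors (median -0.15) and GTPases (-0.28) lie mostly below 0, the interferon pathway genes (0.05) mostly above it, and the NF-κB type genes are the most spread.

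The cultures were mixed, and in bulk RNA fewer cells of a type cannot be told apart from less RNA per cell. The neutrophil and MDSC marker S100a8 had 13399 on the silncMDSC array and 13474 on the control array, and the monocyte marker Csf1r had 4347 with silncMDSC and 4088 with control siRNA, so both were abundant as in the labelled cell type, while Ly6g has no probe set of its own here. Of 10 macrophage markers above the floor, all 10 were below 0, 5 of them past 1.5-fold, with a median of -0.47. Mrc1 led, at 562 with silncMDSC and 1074 with control siRNA. Adgre1 was level, at 3067.5 with silncMDSC and 3070.1 with control siRNA. C1qa (-0.03), Cd68 (-0.11), C1qc (-0.23) and C1qb (-0.25) also differed by less than 1.5-fold. Neutrophil markers had a median of -0.13, with 7 of 8 below 0. Monocyte markers had a median of 0.16, with 5 of 6 above 0. T and NK cell markers also had a median of 0.16, with 3 of 4 above 0. Klrd1, a receptor of NK cells, had 528 with silncMDSC and 280.7 with control siRNA (0.91). The others were nearer 0, with Cd3d at 0.19, Cd3e at 0.12 and Nkg7, a brighter marker than Klrd1, below 0 (-0.04). Ncr1 was under the floor on both arrays. All 7 dendritic cell markers were above 0, with a median of 0.41, and all 5 markers of plasmacytoid dendritic cells above the floor were slightly above 0, with a median of 0.10, but further probe sets of Ccr9 (-0.93) and Klk1 (-0.04) lay below 0, and Siglech, their defining marker, was under the floor on both arrays (69.0 with silncMDSC and 77.8 with control siRNA).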

How the data were processed

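Total RNA (6 µg, per the labels) of each culture was hybridised to 1 array. The values deposited by the authors are linear probe set intensities with a lowest value of 1.00; RMA is named in the submitters' processing notes, while no source used here gives the step back to the linear scale. Array medians were 79.0 for silncMDSC and 77.9 for control siRNA. Control probe sets were removed, leaving 45037, of which 34945 had 1 gene symbol, 932 several and 9160 none. All 68 single-symbol probe sets of the members were found by Entrez identifier in RefSeq. A pseudocount of 1 was used. The methods' limma analysis with a 2-fold threshold cannot be fitted with 1 array a group, so no p is given, and the number of arrays limits the precision. Every member, every pathway gene and up to 6 genes of each other list could be named, besides cell type markers and guanylate-binding proteins. The members and lists were chosen with earlier results of these data known. Alternatives covered centring, a loess trend (span 0.3), quantile normalization, pseudocount, floor, probe set choice, threshold and grouping. The code for the differences and counts was run on simulated data with known changes and little noise. That run checked the arithmetic and gives no measure of error between arrays. Python 3.11.15, pandas 2.3.3, numpy 2.4.6 and statsmodels 0.14.6 were used.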

Additional observations from a re-analysis of the deposited data

How the results depend on the processing

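No paired analysis was possible because each group has 1 array. Over the other settings the median of all members ran from -0.18 to -0.13, that of the antiviral effectors from -0.16 to -0.12 and that of the GTPases from -0.28 to -0.18, each below 0 in every setting run. The count of members below 0 was 32 of 40 with the loess trend removed and with quantile normalization. The GTPase median was -0.23 with the floor at the 75th percentile and -0.18 with Mx1 and Mx2 counted among them. The count at least 1.5-fold lower was 2 for all members and 0 for GTPases with the floor at the 75th percentile, where Iigp1 and Cxcl10 drop out, and 1 for antiviral effectors with the loess trend or quantile normalization, where Ifit1 drops under it, and with the mean of probe sets, where Cmpk2 does (-0.47). At a lower threshold, a log2 difference of 0.32, the counts lower were 8 for all members, 4 for antiviral effectors, 3 for GTPases, 2 for pathway genes (with 2 higher) and 7 for other interferon-induced genes (with 1 higher). The share of all genes past that lower threshold was not computed, so these counts have no background beside them. The same holds for the 1.5-fold counts under the other settings. At 2-fold the counts lower were 0 for all members, antiviral effectors, GTPases and other interferon-induced genes, and 5 for NF-κB type genes (with 1 higher). Of all 11920 genes, 16 were at least 2-fold lower and 20 at least 2-fold higher. The NF-κB median was -0.25 with the mean of probe sets and without probe sets that can cross-hybridise, which also left 3 MHC class I genes below 0. With a pseudocount of 16, Cxcl10 was -0.69 and Iigp1 -0.71. Of the alternative values for single members, 386 lay within 0.05 of the reported difference and 10 did not. Those within 0.05 include the sign changes of Dhx58, Parp9, Oas3 and Ifitm3. Many of the values could not move. A change of floor leaves a member's difference as it was, and so does the mean of probe sets for a gene with 1. The count is therefore no measure of how stable the differences were. The count of members at least 1.5-fold lower was 3 with the loess trend, quantile normalization and the mean of probe sets. An ISRE spacer of 1 to 3 bases gave 23 of 34 members with a match (67.6%), against 9.91% of all genes and 61.1% of other interferon-induced genes.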

Other observations

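Among 10 pairs of members that lie close in the genome, gaps between their differences ran from 0.13 to 0.54. Rsad2 and Cmpk2, which have no other gene between them in RefSeq, differed by -0.18 and -0.72, a gap of 0.54. Dtx3l and Parp9 differed by 0.19 and -0.02, a gap of 0.21, and Gbp3 and Gbp2, with 2 genes between them, by -0.18 and 0.24, a gap of 0.42. Ifit3 and Ifit1 had a gap of 0.42 as well, Parp14 and Dtx3l 0.36, Ifit2 and Ifit3 0.25, Igtp and Irgm2 0.21, Oasl2 and Oasl1 0.19, and Mx1 and Mx2 0.17. Oas2 and Oas3 were the closest such pair, at -0.16 and -0.02, a gap of 0.13. The Cmpk2 value comes from the probe set that its other probe set contradicts. Pairs of unrelated genes were not compared.

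By chromosome, all 7 members on chromosome 11 were below 0, with a median of -0.23, though Dhx58 among them (-0.01) had no stable sign. All 3 on chromosome 19 were below 0, with a median of -0.44. Of the 6 on chromosome 16, 4 were below 0, with a median of -0.07. Over all genes 50.7% were below 0, and shares of all genes by chromosome were not computed. The members' values describe few genes that partly arose from each other by duplication.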
